A study of Mus musculus with 33 samples.

Results

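Described here are 10 genes of mitochondrial NADPH supply and peroxide removal in mouse brain, across 2 C57BL/6 substrains and several levels of the neuronal arginine tRNA n-Tr20. They are Nnt, Idh2, Me3, Txnrd2, Txn2, Prdx3, Prdx5, Sod2, Gpx1 and Gpx4, chosen by name. Matched by symbol, the 10 genes correspond to 11 gene IDs of 54752 in the forebrain tables, because Nnt is carried by 2 IDs, and all 11 IDs are also listed in the hippocampus tables.

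NADPH is the electron donor that keeps the glutathione and thioredoxin systems of the mitochondrial matrix reduced. NNT, the nicotinamide nucleotide transhydrogenase, is an enzyme of the inner mitochondrial membrane that uses the proton gradient to pass hydride from NADH to NADP+, while IDH2 and ME3 make NADPH in the matrix from isocitrate and malate. SOD2 turns superoxide into hydrogen peroxide, which PRDX3 and PRDX5 (with thioredoxin 2 and its reductase TXNRD2) and GPX1 (with glutathione) then reduce, and GPX4 reduces lipid peroxides in membranes. C57BL/6J is widely known to carry a spontaneous deletion of several exons of Nnt that C57BL/6N lacks, so the gene also reports the substrain of a sample.

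The series holds 33 libraries from mice aged 8 weeks. Forebrain RNA, depleted of ribosomal RNA and strand-marked, was sequenced from 20 mice in 5 groups of 4. Mice are counted here by the sample numbers in the labels, each number of a group taken as 1 mouse. The groups were C57BL/6NJ with wild-type n-Tr20 (B6N), C57BL/6NJ n-Tr20 -/- (B6N knockout), C57BL/6J, labelled as a hypomorphic mutant for n-Tr20 (B6J), C57BL/6J Tg(n-Tr20), a transgenic line (B6J transgenic), and C57BL/6J n-Tr20 -/- (B6J knockout). The first 4 groups formed batch 1 and the B6J knockout was run in batch 2, together with a repeat library of transgenic mouse 4, giving 21 libraries. From hippocampus there were, per genotype (B6N or B6N knockout), 3 libraries of poly(A) RNA and 3 of ribosome footprints, the pieces of RNA that a translating ribosome protects from digestion. The strain label of the hippocampus samples is C57BL/6NJ, but the protocol text and the RNA headers write B6JN for the hippocampus RNA mice. The promoter that drives the transgene is not given in the labels, and n-Tr20 itself was not analysed here, so its level was not checked in any group.

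Totals were 14.7 M to 38.5 M (M, 1000000) estimated counts in forebrain, 35.8 M to 60.4 M counts in hippocampus RNA and 7.6 M to 17.9 M in footprints. Levels are given in CPM (counts per 1000000, scaled by TMM) within a gene and in TPM (transcripts per 1000000, which takes out transcript length) between genes. Called genes are those whose adjusted p, over all genes tested, was under 0.05, and only these are said to rise or fall. Neuronal markers were present in every library, at a summed 3499 to 3875 CPM in batch 1 forebrain. Of the B6J knockout libraries, 3 held Xist RNA at levels of female mice. The choroid plexus marker sum over all B6J knockout libraries was 401 to 566 CPM. It was 17.3 to 69.5 CPM in B6J transgenic, 12.9 to 487 CPM in B6J, 16.1 to 201 CPM in B6N and 14.7 to 293 CPM in B6N knockout. Comparisons with B6J knockout therefore carry batch, sex and choroid plexus content together, and these cannot be told apart. In bulk tissue, fewer cells of a type and less RNA per cell cannot be told apart either.

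Per length, the 10 genes spanned a wide range in B6N forebrain. Gpx4 was highest at 83.2 ± 6.14 TPM (SD, n = 4), followed by Prdx5 at 43.7 ± 1.29, Sod2 at 32.5 ± 2.8, Gpx1 at 22.9 ± 1.12 and Me3 at 19.5 ± 1.5 TPM. Txn2 (16.1 ± 1.05 TPM) and Prdx3 (14.9 ± 0.458 TPM) overlapped and did not differ beyond their spread. Idh2 at 8.11 ± 0.398, Nnt at 6.63 ± 0.268 and Txnrd2 at 4.02 ± 0.465 TPM were the lowest, with no overlap between these 3 genes. In B6N forebrain Nnt was thus among the least abundant of the transcripts described, below both matrix enzymes that make NADPH.

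Nnt RNA separated the substrains without overlap. With both gene IDs added, the B6N libraries held 35.1, 36.7, 35.5 and 34.8 CPM and the B6N knockout libraries 36.9, 34.9, 35.8 and 31.1 CPM. The B6J libraries held 20.7, 19.1, 17.7 and 20.8 CPM, the B6J transgenic libraries 18.8, 20.7, 18.3 and 19.4 CPM (18.6 CPM in the repeat library of mouse 4), and the B6J knockout libraries 19.6, 18.5, 20.5 and 19.5 CPM. All 8 mice of the B6N background lay between 31.1 and 36.9 CPM, and all 12 mice of the B6J background between 17.7 and 20.8 CPM. Nnt, counted over both IDs, fell 1.81-fold in B6J against B6N (log2 fold change -0.85 ± 0.06 SE, edgeR adjusted p = 2.22e-11) and 1.84-fold in B6J transgenic against B6N (-0.88 ± 0.06, adjusted p = 7.05e-12). These 2 comparisons share the B6N libraries.

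**Figure D1:**
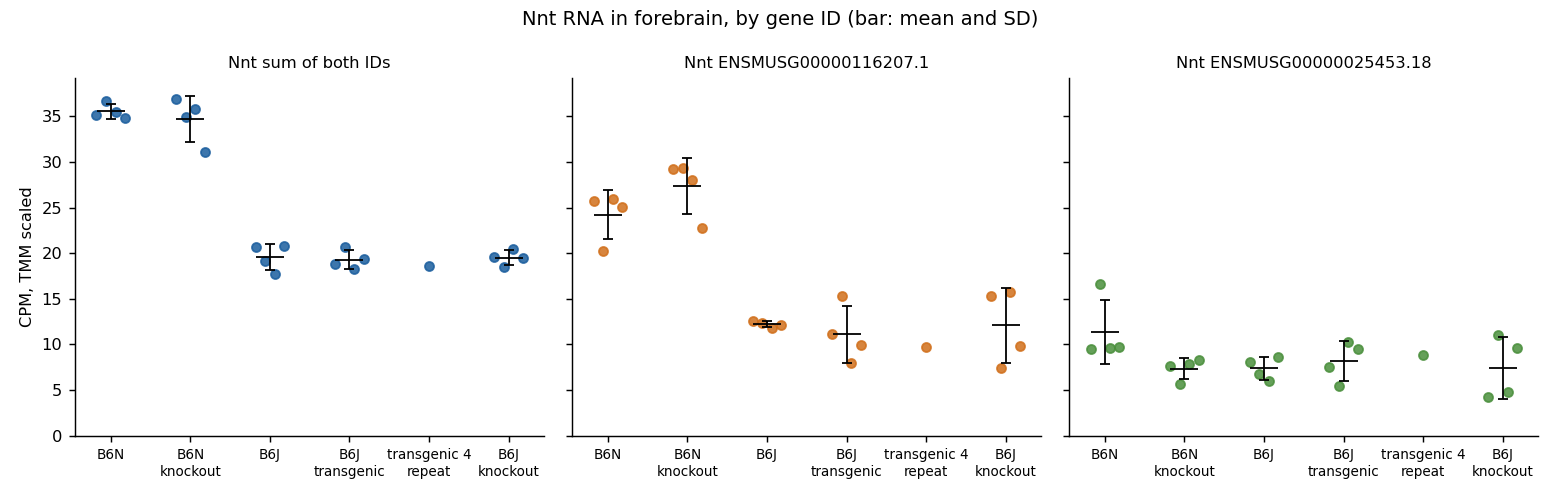
Nnt RNA in each forebrain library, in TMM-scaled CPM (vertical axis), for the sum of both gene IDs and for each ID, by group (horizontal axis); points are libraries, and bars give the mean and SD of groups of 4. For the sum, the B6N and B6N knockout libraries sit between 31.1 and 36.9 CPM and every library of the B6J background sits between 17.7 and 20.8 CPM; for the single IDs the points of a group scatter more.

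The n-Tr20 genotype moved Nnt within neither background by a called amount. Loss of n-Tr20 on B6N gave a summed log2 fold change of -0.04 ± 0.06 (adjusted p = 0.848), and B6J against B6J transgenic gave 0.03 ± 0.06 (adjusted p = 0.929). On the B6J background the knockout gave 0.08 ± 0.12 against transgenic (adjusted p = 0.881) and 0.06 ± 0.14 against B6J (adjusted p = 0.969), with the larger errors of a batch difference that rests on 1 mouse. The transgenic libraries, which differ from B6J in n-Tr20 per the labels, lay within the B6J range for Nnt.

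The split of Nnt reads between its 2 IDs was less steady than the sum. ENSMUSG00000116207.1 holds a single transcript, Nnt-206 (3339 nt, protein coding). ENSMUSG00000025453.18 holds the other 5, the coding Nnt-201 (3122 nt), Nnt-202 (3464 nt) and Nnt-203 (3198 nt) and the retained-intron Nnt-204 (2340 nt) and Nnt-205 (1885 nt). Because the IDs share sequence, the authors' quantification had to divide reads between them. The share given to ENSMUSG00000116207.1 ran from 54.9 to 73.0% in B6N, 73.4 to 83.8% in B6N knockout, 58.3 to 66.4% in B6J, 43.7 to 73.8% in B6J transgenic and 40.5 to 78.1% in B6J knockout, on 256 to 866 Nnt counts per library. At the level of single IDs, values therefore carry this uncertainty on top of the spread between mice.

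ENSMUSG00000116207.1 was the ID in which the strain difference was called. Its level was 25.7, 20.2, 25.9 and 25.1 CPM in B6N and 29.2, 29.3, 28.0 and 22.8 CPM in B6N knockout. In B6J it was 12.6, 12.3, 11.8 and 12.1 CPM, and in B6J transgenic 11.2, 15.3, 7.97 and 9.97 CPM, with no overlap between the backgrounds. It fell 1.98-fold in B6J against B6N (log2 fold change -0.98 ± 0.15, adjusted p = 0.005) and 2.2-fold in B6J transgenic against B6N (-1.13 ± 0.15, adjusted p = 0.00384). The second call did not hold when only the 2 groups were fitted (-1.14, adjusted p = 0.119), while the summed call held there. ENSMUSG00000025453.18 was at 9.46 to 16.6 CPM in B6N. Without overlap with B6N, it was at 5.96 to 8.66 CPM in B6J and 5.64 to 8.25 CPM in B6N knockout. In B6J transgenic this ID was at 5.44 to 10.3 CPM, overlapping B6N. It was lower by -0.61 ± 0.23 in B6J (adjusted p = 0.282) and by -0.46 in B6J transgenic (adjusted p = 0.608), neither called, and by -0.63 ± 0.23 in B6N knockout (adjusted p = 0.253).

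Among single transcripts, 1 of the 6 Nnt transcripts was called in each strain comparison, against 0.117% of 68280 transcripts in B6J and 0.0776% in B6J transgenic. Nnt-206 fell by 0.99 ± 0.15 on the log2 scale in B6J (adjusted p = 0.0155) and by 1.13 ± 0.15 in B6J transgenic (adjusted p = 0.00482). The retained-intron transcripts gave -0.11 ± 0.18 (Nnt-204) and -0.25 ± 0.36 (Nnt-205) in B6J, and the coding Nnt-203 gave -0.19 ± 0.2, none called. Whether the transcripts differ from each other in their response was not tested. Nnt-202, the longest, had at least 1 estimated count in 4 of the 8 B6N-background libraries (59.0, 170.0 and 33.3 counts in B6N mice 1 to 3 and 16.6 in B6N knockout mouse 1) and in 0 of the 13 libraries of the B6J background. The other 4 B6N-background libraries were also without it and the fit did not call it (adjusted p = 0.539), so it is given as a count of libraries only.

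No tested neighbour of Nnt on the chromosome was called with it. Nnt lies at chr13:119335527-119409257 (GRCm38.p6). Within 500 kb of it, 18 genes are annotated and 9 were tested, and 0 were called in either strain comparison. Their log2 fold changes ran from -0.19 to 0.47 in B6J (smallest adjusted p 0.476) and from -0.05 to 0.44 in B6J transgenic (smallest adjusted p 0.517). Hmgcs1, an enzyme of the cholesterol pathway, gave -0.01 ± 0.04 in B6J, and Paip1, a translation factor, gave 0.05 ± 0.05.

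Over the 16 batch 1 libraries, the genes whose log2 CPM followed summed Nnt most closely were Gabra2 (Pearson r = 0.97), a GABA-A receptor subunit, Wdfy1 (0.97), Cd59a (0.96), a complement inhibitor, Gm13303 (0.95) and Hist1h4n (0.95), of 20342 genes. The summed Nnt values form 2 clusters by substrain, so this measure ranks genes by how cleanly they split the strains, and no p is given. Gabra2 went from 103 ± 2.38 CPM in B6N to 51.2 ± 3.84 CPM in B6J and 51.2 ± 2.24 CPM in B6J transgenic. Wdfy1 went from 48.6 ± 1.56 to 23.9 ± 1.36 and 24.5 ± 0.846 CPM. None of the other 9 genes described here came near this: against summed Nnt, Sod2 had r = 0.41, Gpx1 0.3, Prdx5 0.19, Prdx3 0.13, Txn2 -0.11, Idh2 -0.2, Txnrd2 -0.36, Gpx4 -0.36 and Me3 -0.51.

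Read over all members, the strain comparison called 2 of 11 gene IDs in B6J against B6N, where 1.73% of 25151 genes were called. One was lower (ENSMUSG00000116207.1 of Nnt, with 0.513% of all genes lower) and one was higher (Me3, with 1.21% higher). The median log2 fold change of the 11 IDs was -0.01. B6J transgenic against B6N called 1 of 11 (the same Nnt ID), against 0.366% of all genes in either direction and 0.0954% lower, with a median of -0.03. Apart from Nnt and Me3, the differences in B6J reached at most 0.12 on the log2 scale.

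Me3, the mitochondrial NADP+-dependent malic enzyme, was the member other than Nnt that was called between the substrains. It stood at 68.5, 64.4, 70.4 and 69.7 CPM in B6N and at 71.2, 78.3, 77.8 and 84.7 CPM in B6J, so that the groups did not overlap, though the lowest B6J library was close to the highest B6N one. Me3 rose 1.14-fold in B6J (log2 fold change 0.19 ± 0.05, adjusted p = 0.022). B6J transgenic libraries held 68.7, 71.9, 66.0 and 71.0 CPM, of which 2 lay within the range of B6N and 2 just above it, and their difference from B6N was 0.03 ± 0.05 (adjusted p = 0.929). B6J against B6J transgenic gave 0.17 ± 0.05 (adjusted p = 0.133), not called, so a difference of Me3 with the transgene was not shown in these 8 mice. B6N knockout libraries held 66.6, 70.3, 65.2 and 72.1 CPM, a difference from B6N of 0.01 ± 0.05 (adjusted p = 0.981).

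The Me3 call was fragile. It was lost with an offset for transcript length (0.2, adjusted p = 0.138) and in 5 of the 8 fits that left out 1 mouse, with adjusted p of 0.0541 without B6N mouse 1, 0.0864 without B6N mouse 2, 0.0658 without B6J mouse 2, 0.0508 without B6J mouse 3 and 0.146 without B6J mouse 4. Conversely, without B6J mouse 1 the difference from B6J transgenic was called (0.21, adjusted p = 0.0319). Only part of Me3 counts sat on the coding Me3-202 (18.2% in B6N and 15.7% in B6J), with 24.0% and 25.4% on the retained-intron Me3-205. In B6J against B6N, Me3-202 gave a log2 fold change of -0.02 ± 0.12 and Me3-205 gave 0.27 ± 0.09. By sign 6 of the 7 transcripts were higher and 1, Me3-202, was lower, and 0 of 7 were called, against 0.117% of all transcripts. A rise of the coding transcript was thus not shown. Beside Me3, the summed level of 5 striatum markers was 309 to 346 CPM in B6N, 366 to 420 CPM in B6J and 312 to 403 CPM in B6J transgenic. Of these 5, 2 rose in B6J, Drd2 (0.48) and Drd1 (0.31), where 1.21% of all genes rose. The list median was 0.28. Of 6 markers of the meninges, 2 fell in B6J (Ogn -0.61 and Dcn -0.35), where 0.513% of all genes fell. The list median was -0.38, with sums of 64.5 to 84.4 CPM in B6N and 49.9 to 66.2 CPM in B6J. The part of these markers in the Me3 difference was not tested.

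Because Me3 and Gpx4 are the 2 genes other than Nnt that were called, their promoter windows are shown, from 250 bases before to 50 bases after the start in RefSeq on GRCm38.p6. The Me3 window is chr7:89632568-89632867 on the plus strand, and capitals mark a match to the composite site of the stress factor ATF4, searched as TGATGNAA on both strands. Of 4 Gpx4 windows, the first that holds a match is chr10:80053315-80053614 on the plus strand, and capitals mark a match to the binding site of NRF1, a regulator of nuclear genes for mitochondria.

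Me3 promoter: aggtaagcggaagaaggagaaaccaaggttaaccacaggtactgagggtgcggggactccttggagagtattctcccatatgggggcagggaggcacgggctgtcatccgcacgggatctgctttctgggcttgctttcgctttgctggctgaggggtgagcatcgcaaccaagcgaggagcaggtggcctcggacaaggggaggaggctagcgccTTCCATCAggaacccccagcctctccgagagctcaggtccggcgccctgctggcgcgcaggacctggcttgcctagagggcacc

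Gpx4 promoter: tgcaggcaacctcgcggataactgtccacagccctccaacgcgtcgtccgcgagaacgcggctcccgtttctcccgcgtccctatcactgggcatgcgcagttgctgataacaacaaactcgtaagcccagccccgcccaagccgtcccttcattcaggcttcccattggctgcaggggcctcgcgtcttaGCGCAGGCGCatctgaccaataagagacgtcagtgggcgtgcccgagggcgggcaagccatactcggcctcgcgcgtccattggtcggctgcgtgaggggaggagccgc

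The table gave 12 windows for 9 of the 10 genes and none for Nnt. The ATF4 site was in 1 of these 12 (Me3) and in 3.97% of all 32851 windows. The NRF1 site was in 2 of 12, both among the 4 windows of Gpx4 and overlapping each other, and in 4.6% of all. The antioxidant response element, searched as TGACNNNGC on both strands, was in 0 of 12 and in 12.4% of all. A match is a run of letters, and binding was not measured.

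Idh2, the other matrix source of NADPH, did not separate the groups. It held 22.8 ± 2.39 CPM in B6N, 22.5 ± 0.382 CPM in B6N knockout, 22.9 ± 1.76 CPM in B6J and 24.0 ± 1.65 CPM in B6J transgenic (SD, n = 4 each). Its log2 fold change was 0.01 ± 0.07 in B6J, 0.08 ± 0.07 in B6J transgenic and -0.02 ± 0.07 in B6N knockout, each against B6N, with adjusted p from 0.819 to 0.978.

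A list of 17 further genes, of NADPH sources, NAD kinases and linked folate enzymes, placed these values in context. NADPH itself was not measured. In B6J against B6N, 2 of the 17 rose and 0 fell, where 1.21% of all genes rose: Mthfd2 (0.56 ± 0.12, adjusted p = 0.0103) and Aldh1l2 (0.43 ± 0.1, adjusted p = 0.0198), both enzymes of mitochondrial folate metabolism. In B6N knockout against B6N, 3 rose and 0 fell, where 1.11% of all genes rose: Mthfd2 (0.95 ± 0.12, adjusted p = 4.02e-06), Aldh1l2 (0.84 ± 0.1, adjusted p = 1.26e-06) and Shmt2 (0.31 ± 0.08, adjusted p = 0.0359), which feeds serine carbon into the same route. The list medians were -0.02 in both, against 0.0 over all genes. B6J transgenic against B6N called 0 of 17, where 0.366% of all genes were called.

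Mthfd2 rose in B6N knockout against B6N and, within the B6J background, in B6J against B6J transgenic. It stood at 3.63, 3.67, 3.52 and 3.92 CPM in B6N and 7.68, 6.84, 7.24 and 6.91 CPM in B6N knockout. In B6J it was 6.08, 4.44, 5.96 and 5.24 CPM, and with the transgene 2.81, 3.76, 3.59 and 4.29 CPM. Every B6J library lay above every transgenic one, and Mthfd2 rose by 0.6 ± 0.13 in B6J against B6J transgenic (adjusted p = 0.0263). B6J knockout libraries held 6.36, 8.05, 8.87 and 7.75 CPM, and rose by 1.18 ± 0.23 against transgenic (adjusted p = 0.00907). Aldh1l2 also rose in B6J knockout against transgenic (1.08 ± 0.19, adjusted p = 0.00336), at 10.4, 11.1, 11.5 and 10.2 CPM against 5.67, 5.04, 7.32 and 6.43 CPM. Both rises in B6J knockout also carry batch, sex and choroid plexus content. Against B6J, the B6J knockout called 0 of the 17, Mthfd2 included, where 0.0945% of all genes were called. In hippocampus, Mthfd2 was the 1 gene of the 17 called. It rose in RNA (1.18 ± 0.11, adjusted p = 0.00923), where 0.0413% of all genes were called. It also rose in footprints (1.12 ± 0.18, adjusted p = 0.0059), where 5.35% of all genes were called and 2.19% rose. Without hippocampus knockout sample 3, 0 genes were called in RNA, so that call was lost.

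**Figure D2:**
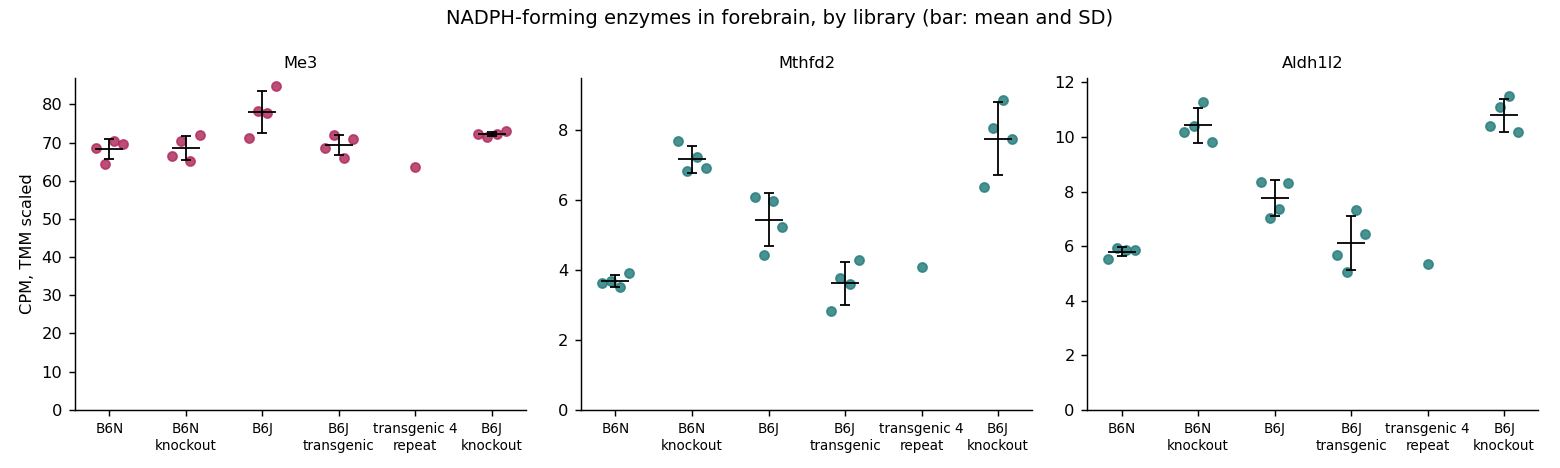
Levels of Me3, Mthfd2 and Aldh1l2 in each forebrain library, in TMM-scaled CPM (vertical axis), by group (horizontal axis); points are libraries, and bars give the mean and SD of groups of 4. Me3 sits at 71.2 to 84.7 CPM in B6J against 64.4 to 70.4 CPM in B6N, while Mthfd2 and Aldh1l2 are highest in both knockout groups.

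Thioredoxin 2 and its reductase showed no called difference in any comparison. Txn2 held 39.1 ± 0.439 CPM in B6N, 39.1 ± 1.52 CPM in B6N knockout, 40.5 ± 3.38 CPM in B6J and 38.4 ± 2.79 CPM in B6J transgenic. Txnrd2, a selenoprotein, held 8.46 ± 0.62, 7.84 ± 0.703, 8.4 ± 0.454 and 8.92 ± 0.812 CPM in the same order. Their differences from B6N in batch 1 lay between -0.11 and 0.08 on the log2 scale.

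Neither mitochondrial peroxiredoxin was called in B6N knockout, and Prdx5 was the closer to the threshold. Prdx5, an atypical 2-Cys peroxiredoxin, stood at 88.3, 89.0, 87.8 and 85.6 CPM in B6N and 80.1, 78.4, 80.5 and 79.4 CPM in B6N knockout, with no overlap. The difference was -0.14 ± 0.04 (edgeR adjusted p = 0.0838). DESeq2 called it (adjusted p = 0.0489), as did edgeR on the 2 groups alone (adjusted p = 0.0162). In B6J, Prdx5 held 86.8, 74.9, 78.9 and 80.7 CPM, a difference from B6N of -0.12 ± 0.04 (adjusted p = 0.152), which was called without B6J mouse 1 (-0.16, adjusted p = 0.0418). Transgenic libraries held 89.8, 83.4, 84.4 and 80.4 CPM, overlapping both.

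Prdx3, the typical 2-Cys peroxiredoxin of the matrix, held 33.0, 35.1, 32.2 and 31.9 CPM in B6N and 29.6, 31.7, 29.7 and 27.8 CPM in B6N knockout. These did not overlap either, by a small margin, and the difference was -0.15 ± 0.05 (adjusted p = 0.146). B6J and B6J transgenic were at 31.1 ± 1.56 and 31.0 ± 1.01 CPM.

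Sod2, the matrix superoxide dismutase, showed no called difference. It held 198 ± 7.52 CPM in B6N, 206 ± 1.03 CPM in B6N knockout, 200 ± 3.01 CPM in B6J and 194 ± 5.01 CPM in B6J transgenic. Its largest difference in batch 1 was 0.06 ± 0.03, in B6N knockout (adjusted p = 0.541).

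**Figure D3:**
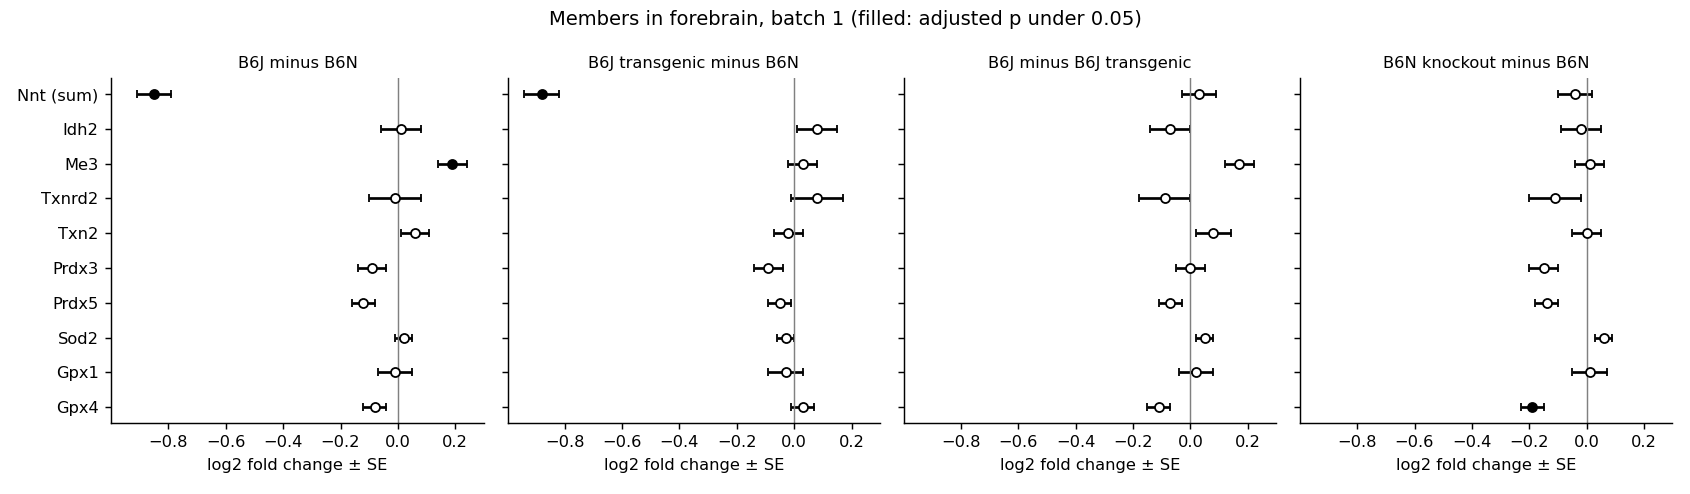
Differences of the members in forebrain as log2 fold changes with SE (horizontal axis), by gene (vertical axis), for the comparisons of batch 1, filled where the adjusted p is under 0.05. Nnt stands apart in B6J and B6J transgenic against B6N at -0.85 and -0.88 for the sum of both IDs, while the other genes lie between -0.19 and 0.19.

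The n-Tr20 comparison on B6N called 1 of the 11 IDs, Gpx4, where 1.91% of all genes were called and 0.807% were lower. The median log2 fold change over the 11 IDs was -0.02. B6J against B6J transgenic, the comparison of low with added n-Tr20 within 1 substrain, called 0 of 11 against 0.25% of all genes; 2 of the 11 had an unadjusted p under 0.05. By DESeq2 that comparison called 157 genes in all, against 63 by edgeR.

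Gpx4, the selenoprotein that reduces lipid peroxides, fell in B6N knockout. It stood at 131, 127, 130 and 122 CPM in B6N and at 107, 118, 111 and 111 CPM in B6N knockout, with no overlap between the groups. The fall was 1.14-fold (log2 fold change -0.19 ± 0.04, adjusted p = 0.00531). It kept its call in all 8 fits that left out 1 mouse, at -0.22 to -0.17 with a highest adjusted p of 0.0377. The main coding transcript, Gpx4-202, held 77.2% of Gpx4 counts in B6N and gave -0.2 ± 0.04 (adjusted p = 0.186), and 0 of 6 transcripts tested were called, against 0.0791% of all transcripts. Beside this fall, 2 of 8 neuronal markers fell in B6N knockout, where 0.807% of all genes fell. They were Tubb3, by 0.17, and Gad1, by 0.18 on the log2 scale, and the list median was -0.05. Summed neuronal markers were 3547 to 3794 CPM against 3719 to 3820 CPM in B6N. Their part in the Gpx4 fall was not tested.

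In B6J and B6J transgenic no called difference of Gpx4 was found. B6J held 124, 121, 120 and 117 CPM, -0.08 ± 0.04 against B6N (adjusted p = 0.423). B6J transgenic held 135, 124, 135 and 126 CPM, so that B6J was -0.11 ± 0.04 against transgenic (adjusted p = 0.298). The order of the means was thus transgenic, B6N, B6J and B6N knockout. B6J against B6N knockout was not tested.

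Gpx1, the glutathione peroxidase of cytosol and mitochondria, held 31.4 ± 1.17 CPM in B6N, 31.8 ± 2.72 CPM in B6N knockout, 31.0 ± 1.04 CPM in B6J and 30.6 ± 2.11 CPM in B6J transgenic. It differed from B6N by at most 0.03 on the log2 scale.

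**Figure D4:**
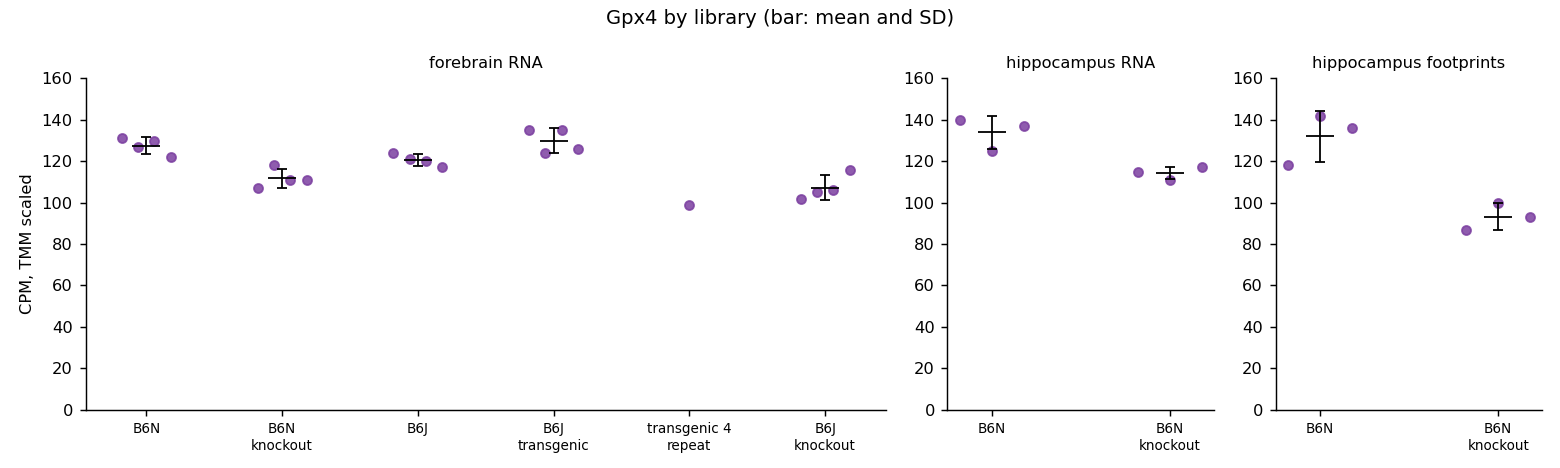
Gpx4 in each library, in TMM-scaled CPM (vertical axis), by group (horizontal axis), for forebrain RNA, hippocampus RNA and hippocampus footprints; points are libraries, and bars give the mean and SD. The B6N knockout libraries lie below all B6N libraries in each assay, at 107 to 118 against 122 to 131 CPM in forebrain, 111 to 117 against 125 to 140 CPM in hippocampus RNA and 87.0 to 100 against 118 to 142 CPM in footprints.

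The hippocampus gave a second set of samples of B6N and B6N knockout. Of its RNA libraries, 1 knockout held Xist RNA at 1243 CPM (at most 2.31 CPM in B6N), and choroid plexus markers summed to 109 to 2794 CPM in B6N and 82.5 to 4133 CPM in knockout; their part in the RNA comparison was not tested. In RNA, 10 of the 11 IDs were tested and 0 were called, where 0.0413% of 19352 genes were called (8 genes; 1536 had an unadjusted p under 0.05, and DESeq2 called 138). In footprints, 1 of 9 was called, again Gpx4, against 5.35% of 13227 genes and 3.16% lower. The median of the 9 genes was -0.08 in footprints and that of the 10 IDs was -0.1 in RNA.

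Gpx4 in hippocampus RNA was at 140, 125 and 137 CPM in B6N and 115, 111 and 117 CPM in knockout, without overlap, a difference of -0.23 ± 0.06 (adjusted p = 0.395). Its footprints were at 118, 142 and 136 CPM against 87.0, 100 and 92.9 CPM, and fell 1.41-fold (-0.5 ± 0.1, adjusted p = 0.0158). That call was lost without B6N sample 2 (-0.44, adjusted p = 0.0678), without B6N sample 3 (-0.48, adjusted p = 0.106) or without knockout sample 2 (-0.55, adjusted p = 0.0537). Translational efficiency, the footprints relative to RNA, differed by -0.3 ± 0.11 (adjusted p = 0.233). In that fit 0 genes were called (0.0% of 15202; 2251 had an unadjusted p under 0.05), while edgeR called 38 without the filter on low counts, and DESeq2 called 494. A change of Gpx4 in translation beyond that of its RNA was not called.

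Cell type markers moved with the footprint comparison. The summed striatum markers were 94.5 to 116 CPM in B6N footprints and 144 to 266 CPM in knockout footprints. Of the 5 striatum markers 2 rose, Drd1 (1.82) and Penk (1.41), where 2.19% of all genes rose. The markers that fell were 2 of 7 for astrocytes (S100b -0.55, Aldoc -0.38) and 2 of 6 for oligodendrocytes (Mbp -0.64, Mobp -0.57). For microglia 1 of 6 fell (Cx3cr1 -0.59) and for neurons 1 of 8 (Slc17a7 -0.29, of excitatory neurons), where 3.16% of all genes fell. The list medians were -0.2, 0.07, -0.18 and -0.05 in that order. Summed oligodendrocyte markers overlapped, at 3414 to 4269 CPM in B6N and 3306 to 3911 CPM in knockout. Summed astrocyte markers were 5192 to 6011 CPM in B6N and 4749 to 5072 CPM in knockout, and summed microglia markers were 486 to 562 CPM and 447 to 463 CPM. Choroid plexus markers summed to 6066 to 13324 CPM in B6N footprints and 8091 to 18497 CPM in knockout. The 708 genes called in footprints became 32 without B6N sample 3, 59 without knockout sample 2, 152 without B6N sample 2 and 264 without knockout sample 1. Their part in the Gpx4 footprint difference was not tested.

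Prdx5 footprints were at 373, 349 and 378 CPM in B6N and 297, 305 and 318 CPM in knockout, without overlap. The difference was -0.26 ± 0.07 and just outside the threshold (edgeR adjusted p = 0.0502); DESeq2 called it (adjusted p = 0.0217), as did edgeR without a filter on low counts (-0.27, adjusted p = 0.0416). In hippocampus RNA, Prdx5 differed by -0.13 ± 0.06 (adjusted p = 0.668). Gpx1 footprints were at 33.2, 38.1 and 37.0 CPM against 29.1, 25.8 and 31.1 CPM, a difference of -0.33 ± 0.12 (adjusted p = 0.137). Sod2 footprints were higher in each knockout library, at 255, 259 and 250 CPM against 237, 237 and 234 CPM, by 0.11 ± 0.07 (adjusted p = 0.403). Me3 (0.14), Idh2 (-0.05), Prdx3 (-0.05), Txn2 (-0.08) and Txnrd2 (-0.22) gave footprint differences with adjusted p from 0.496 to 0.869.

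Footprints per RNA differed widely between these genes within B6N hippocampus. The ratio of mean footprint CPM to mean RNA CPM was 2.93 for Prdx5 and 2.86 for Prdx3, 1.72 for Sod2, 1.63 for Txnrd2 and 1.6 for Idh2, and 1.24 for Me3, 1.12 for Txn2, 1.05 for Gpx1 and 0.983 for Gpx4. The ratios of both peroxiredoxins were thus above those of the other 7 genes. The ratio has no correction for length and no spread of its own, and it compares 2 library types whose protocols differ.

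**Figure D5:**
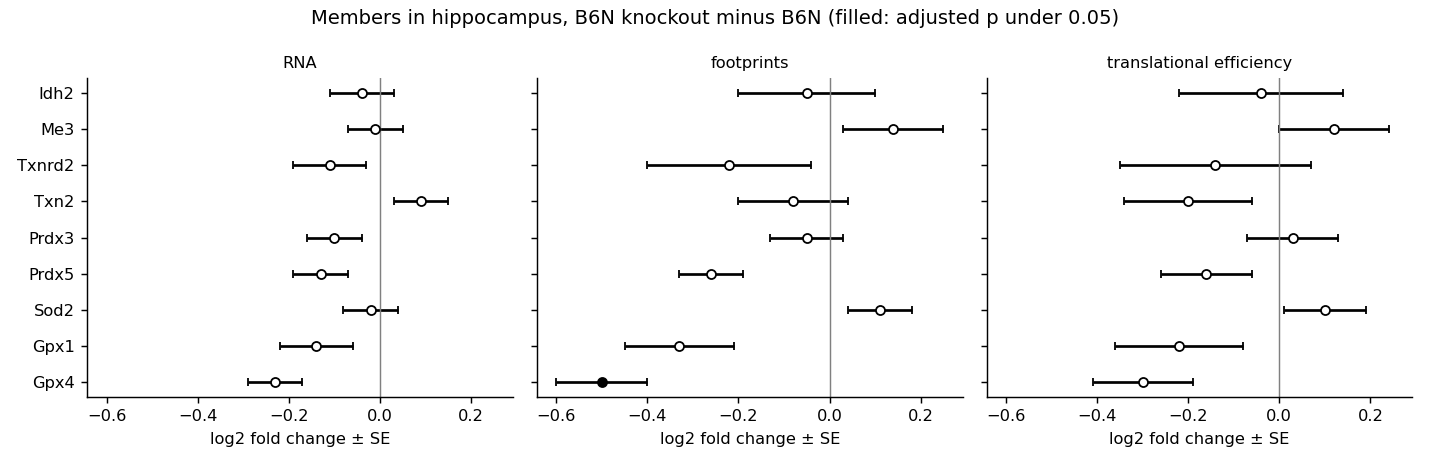
Differences of the members in hippocampus, B6N knockout minus B6N, as log2 fold changes with SE (horizontal axis), by gene (vertical axis), for RNA, footprints and translational efficiency, filled where the adjusted p is under 0.05. Gpx4 is the lowest in footprints at -0.5, followed by Gpx1 at -0.33 and Prdx5 at -0.26, while Sod2 and Me3 lie above 0 in footprints at 0.11 and 0.14.

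Nnt was close to absent from the hippocampus tables. ENSMUSG00000025453.18 held 32 to 52 counts per RNA library, 0.926, 1.05 and 0.882 CPM in B6N and 0.84, 0.762 and 0.932 CPM in knockout, a difference of -0.18 ± 0.21 (adjusted p = 0.881). ENSMUSG00000116207.1 was at 0 in all 6 RNA libraries, and both IDs were at 0 in all 6 footprint libraries, which allows up to 0.168 to 0.394 CPM per footprint library at a floor of 3 counts (counting error only). In B6N forebrain the same 2 IDs held 34.8 to 36.7 CPM together. How the hippocampus counts treated reads that match more than 1 gene is not given in the sources used here, so these values cannot be read as Nnt expression, and Nnt could not serve as a check of substrain for the hippocampus mice.

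The B6J knockout group, compared across batches, called none of the members. Against B6J transgenic, 0 of 11 IDs were called where 0.6% of 27500 genes were, and 5 had an unadjusted p under 0.05. The median was 0.17, beside 0.01 over all genes, with no difference over 0.3. Against B6J, 0 of 11 were called where 0.0945% were, 2 had an unadjusted p under 0.05, and the median was 0.15, beside 0.02 over all genes. Idh2 gave 0.3 ± 0.13 against transgenic (adjusted p = 0.378), Gpx1 0.28 ± 0.12 (0.343), Me3 0.21 ± 0.09 (0.359), Prdx5 0.17 ± 0.08 (0.445) and Prdx3 -0.21 ± 0.1 (0.443). These values include the batch term. Mean Gpx1 was 28.9 CPM in B6J knockout and 30.6 CPM in transgenic, so lower, with 25.5 CPM in the repeat library. In the same order Idh2 was at 24.3, 24.0 and 21.6 CPM, Me3 at 72.2, 69.4 and 63.7 CPM and Prdx3 at 28.1, 31.0 and 33.7 CPM.

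The sign of the Gpx4 difference in this group depended on the batch term. B6J knockout libraries held 102, 105, 106 and 116 CPM, below the transgenic range of 124 to 135 CPM in batch 1, but the repeat of transgenic mouse 4 in batch 2 held 98.8 CPM where the same mouse had 126 CPM in batch 1. With batch in the fit, Gpx4 differed by 0.07 ± 0.08 from transgenic (adjusted p = 0.852) and by 0.17 ± 0.09 from B6J (adjusted p = 0.703). Without it the differences were -0.28 (adjusted p = 2.97e-05) and -0.17 (adjusted p = 0.00606). Prdx5 likewise was 68.2 CPM in the repeat and 80.4 CPM in batch 1 for that mouse. The effect of n-Tr20 loss on B6J minus that on B6N was tested in the same fit and called 0 of 11 members (0.229% of all genes; 3 of 11 with an unadjusted p under 0.05), with Gpx4 at 0.26 ± 0.09 (adjusted p = 0.312) and Prdx5 at 0.31 ± 0.09 (adjusted p = 0.164). So a different response of Gpx4 on the 2 backgrounds was not shown.

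Lists of other antioxidant genes were read in forebrain. Of all genes, 0.513% fell in B6J and 0.807% in B6N knockout, each against B6N. Whether a list held more called genes than these shares was not tested. Of 16 other genes of mitochondrial thiol and superoxide defence, 0 were called in either strain comparison and 1 fell in B6N knockout, Park7 (-0.19 ± 0.05, adjusted p = 0.0432), the redox-sensitive protein DJ-1. Of 14 cytosolic and secreted counterparts, 1 fell in B6J, Txn1 (-0.21 ± 0.05, adjusted p = 0.0268), the cytosolic thioredoxin, and 0 were called in B6N knockout. Of 15 targets and controls of NRF2, the main antioxidant transcription factor, 2 fell in B6J against B6N, Gsta4 (-0.35 ± 0.07, adjusted p = 0.00311), which conjugates products of lipid peroxidation, and Slc7a11 (-0.25 ± 0.05, adjusted p = 0.00986), the cystine importer. In B6N knockout 0 of those 15 were called. In B6J knockout against transgenic 1 of the 15 rose, Ephx1 (0.91 ± 0.16, adjusted p = 0.00334), where 0.6% of all genes were called. That comparison also carries batch, sex and choroid plexus content.

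Selenoprotein genes were read because Gpx1, Gpx4 and Txnrd2 need selenocysteine. Of 15 genes of selenoprotein synthesis and other selenoproteins, 0 were called in each forebrain comparison and in hippocampus RNA. In hippocampus footprints 4 of the 15 fell and 0 rose, where 3.16% of all genes fell: Selenow (-0.86 ± 0.1, adjusted p = 0.0015), Selenom (-0.46 ± 0.09, adjusted p = 0.0174), Selenop (-0.43 ± 0.1, adjusted p = 0.0286) and Pstk (-0.88 ± 0.21, adjusted p = 0.0279), the kinase that acts on the selenocysteine tRNA. The list median was -0.28 in footprints and -0.17 in translational efficiency, where 0 of 15 were called, beside 0.0 and -0.02 over all genes. The cell type markers named above moved in the same footprint libraries.

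Genes of mitochondrial content were not called with Nnt. Of 20 genes of respiratory chain subunits and other mitochondrial housekeeping proteins, 0 were called in B6J or B6J transgenic against B6N (medians 0.02 and -0.01). In B6N knockout, where 1.11% of all genes rose, 1 of the 20 rose, the chaperone Hspa9 (0.22 ± 0.04, adjusted p = 0.000398). In hippocampus footprints, where 2.19% of all genes rose and the cell type markers moved, 4 of the 20 rose and 0 fell: Atp5b (0.29 ± 0.07), Ndufs1 (0.31 ± 0.07), Hspa9 (0.28 ± 0.07) and Tomm20 (0.4 ± 0.1).

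Of 10 genes listed as mitochondrial stress genes, 8 were measured in forebrain. Whether mitochondria were under stress was not tested. Of the 8 measured, 4 rose in B6N knockout, against 1.11% of all genes: Atf4 (0.71 ± 0.04), Atf5 (0.68 ± 0.11), Asns (0.5 ± 0.05) and the protease Lonp1 (0.24 ± 0.05). In B6J against B6N, where 1.21% of all genes rose, Atf4 alone of the 8 rose (0.4 ± 0.04, adjusted p = 9.89e-08). In B6J transgenic against B6N, 0 of 8 were called. Within the B6J background, Atf4 (0.32 ± 0.04) and Asns (0.22 ± 0.05) rose in B6J against B6J transgenic, 2 of 8 against 0.25% of all genes called. In B6J knockout against transgenic, where 0.6% of all genes were called, 3 of 8 rose, Atf4 (0.79 ± 0.08), Lonp1 (0.61 ± 0.1) and Asns (0.51 ± 0.09). In hippocampus RNA, where 0.0413% of all genes were called, 1 of 8 rose, Atf4 (0.65 ± 0.07). In footprints 3 of 8 rose, Atf4 (1.38 ± 0.16), Asns (0.7 ± 0.07) and Lonp1 (0.51 ± 0.1), where 2.19% of all genes rose. Of the same 8, 2 fell, among them the chaperonin Hspe1 (-0.62 ± 0.13), where 3.16% of all genes fell.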

How the data were processed

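The members and all gene lists were chosen with earlier results of these data known. Per the labels' protocols, forebrain libraries were depleted of ribosomal RNA and hippocampus RNA was selected by poly(A). For forebrain the authors deposited estimated counts and TPM per transcript, in the layout that kallisto writes. For hippocampus the authors deposited whole, unnormalized counts per gene. Tools listed in the submitters' processing notes are featureCounts, Bowtie2 2.2.3, HISAT2 2.1.0 and kallisto 0.42.4, and the build is mm10; which tool made which file, and any filters, were not stated.

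For each gene ID, the estimated counts of its forebrain transcripts were added and rounded. Tests were two-sided, with edgeR 4.0.16 in R 4.3.3 (robust quasi-likelihood F test, library sizes scaled by TMM, genes kept by filterByExpr with its minimum count at 10, Benjamini-Hochberg adjustment over all genes tested). The 16 batch 1 libraries were fitted together. Comparisons with B6J knockout used all 21 forebrain libraries and a batch term, set only by the 2 libraries of transgenic mouse 4. The 2 hippocampus assays had separate fits, and a joint fit gave translational efficiency from its assay by genotype term. Summed Nnt was fitted by replacing its 2 gene IDs with their sum. The code was tested on simulated data.

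Every member is named. Of each list, genes past the threshold are named, at most the 4 of smallest adjusted p per comparison. Likeness to Nnt was ranked by Pearson r of log2 CPM, 5 genes named. Errors are SE for log2 fold changes and SD for levels. Nothing in the labels says that samples of a group were separate animals other than their numbers, so the p-values measure the spread between these samples. No 2 libraries of a group were as close as counting error (lowest chi-square over degrees of freedom 2.92 in 42 pairs). Same-numbered libraries of different genotypes did not deviate together in every pair. Same-numbered hippocampus RNA and footprint libraries correlated at 0.11 to 0.18 in B6N and at -0.16 to 0.15 in knockout, so not in every pair. Alternatives were DESeq2 1.42.0, RLE scaling, no filter, a transcript length offset, fits of the 2 groups alone, a replicate block, no batch term and leaving out each library. Fits of knockout 4 alone, the difference of knockout effects and refits of summed Nnt were chosen after seeing the data. Promoters were from the RefSeq table for GRCm38.p6.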

Additional observations from a re-analysis of the deposited data

Results flagged for a closer look

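In 2 of the 60 groups of 4 forebrain libraries examined, 1 library stood apart from the other 3 by Dixon's test, and chance flags about 1 in 20 groups. Both concern Nnt in B6N mouse 2. There ENSMUSG00000025453.18 was at 16.6 CPM, where the other B6N libraries held 9.46 to 9.75 CPM, and ENSMUSG00000116207.1 was at 20.2 CPM, where the others held 25.1 to 25.9 CPM. The 2 deviations had opposite signs, and the sum of both IDs in that library, 36.7 CPM, was close to the 34.8 to 35.5 CPM of the other 3. The same library also held the most estimated counts of Nnt-202, 170.0.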

How the results depend on the processing

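Summed Nnt kept its direction and its call in both strain comparisons under DESeq2, RLE scaling, no filter on low counts, fits of the 2 groups alone and a replicate block, from -0.86 to -0.85 in B6J and from -0.89 to -0.88 in B6J transgenic. Leaving out each library in turn gave -0.88 to -0.81 and -0.92 to -0.86. Summed Nnt was not refitted with the transcript length offset.

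Counts of genes called moved more. For B6J minus B6N, 143 genes were called with a transcript length offset, 990 with the 2 groups alone and 947 with the replicate block on them. With the length offset, 55 were called for B6J transgenic minus B6N, 174 for B6N knockout, 6 for B6J minus B6J transgenic, 68 for B6J knockout minus transgenic and 12 for B6J knockout minus B6J. DESeq2 called 157 for B6J minus B6J transgenic, 470 and 141 for B6J knockout minus transgenic and minus B6J, and in hippocampus 138 for RNA, 1080 for footprints and 494 for translational efficiency. Without the filter, 106 were called for B6J minus B6J transgenic, 135 for hippocampus RNA and 38 for translational efficiency. Without the batch term, B6J knockout differed in 3615 genes from transgenic and 3302 from B6J, and with knockout 4 alone in 96 and 10. A replicate block gave 7 for translational efficiency.

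Of the members, 1 was called with the length offset in B6J minus B6N. In B6J transgenic minus B6N, 0 were called with the 2 groups alone or with the replicate block. In B6N knockout, 2 were called by DESeq2, with the 2 groups alone and with the replicate block (Gpx4 and Prdx5). In footprints 2 were called by DESeq2 and without the filter. Without the batch term, 1 member was called in each B6J knockout comparison, Gpx4, whose sign turned to -0.28 against transgenic and -0.17 against B6J. Of the member calls, 2 differed with the replicate block on the 2 groups alone, Prdx5 in B6N knockout (adjusted p = 0.041) and ENSMUSG00000116207.1 of Nnt in B6J transgenic minus B6N (-1.15, adjusted p = 0.391), and both differed in the same way with the 2 groups alone and no block (0.0162 and 0.119). The block added alone, in the B6J knockout and hippocampus comparisons, changed 0 of 50 member values in call or direction. The replicate numbers share only a number in the labels, with correlations of same-numbered deviations from -0.42 to 0.18.

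Leaving out 1 library at a time, genes called ranged from 216 to 426 (B6J minus B6N), 53 to 176 (B6J transgenic minus B6N), 262 to 751 (B6N knockout), 16 to 196 (B6J minus B6J transgenic), 133 to 362 and 10 to 29 (B6J knockout minus transgenic and minus B6J), 0 to 10 (hippocampus RNA), 32 to 916 (footprints) and 0 to 93 (translational efficiency). Members called ranged from 1 to 3 (B6J minus B6N), 0 to 1 (B6J minus B6J transgenic) and 0 to 1 (footprints), and were otherwise the same. The fit without transgenic mouse 4 could not be given, since its pair sets the batch term. The cause of these shifts was not tested. Nnt rested on 256 to 866 counts per forebrain library.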
